A study of Rattus norvegicus with 8 samples.

Results

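Astrocytes at rest keep the extracellular fluid of the brain clear of glutamate, potassium and excess water, and 10 genes that carry out this housekeeping or mark the cells were followed here in rat hippocampal slice cultures: Aqp4, Aldh1l1, S100b, Slc1a2, Slc1a3, Gjb6, Gja1, Fabp7, Glul and Sox9. A probe set, the group of short probes that gives the array 1 value for a transcript, was taken as a member when it carried one of these symbols and no other in the platform annotation. This gave 18 of 31099 probe sets for 9 of the 10 genes. No probe set carried Sox9 as its single symbol, and Sox9 is not analysed here. Of the 18, 17 passed a filter on dim signal, and these covered all 9 genes; the dimmest of the Gja1 probe sets did not pass.

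Total RNA had been drawn from 8 pools of 15 slice cultures (hippocampal slices maintained in vitro), from which the pyramidal cell field CA1 or CA3 had been dissected. The labels give 3 control arrays and 1 lesion array for CA1 and the same for CA3, all of rat tissue with a time of 7 days. They do not give the strain, the age, the type of lesion or the start of the 7-day count, and a slice culture holds glia, neurons and injured axons but no blood supply. Whether the arrays came from separate animals or preparations is not in the labels, so p-values reflect the spread among these arrays, part of which may be technical.

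Astrocytes take up synaptic glutamate through transporters in their membrane, turn it into glutamine with glutamine synthetase and hand the glutamine back to neurons. They are joined to each other by gap junctions, through which potassium and metabolites spread, and they hold water channels in dense arrays on endfeet around vessels. After injury astrocytes turn reactive and make intermediate filaments and acute-phase proteins, and single homeostatic genes can then go up or down. In a bulk sample, fewer astrocytes and less RNA per astrocyte cannot be told apart.

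The arrays had median intensities from 561.2 to 815.3. A check of RNA integrity, the Gapdh 3'/5' ratio, which is higher in degraded RNA, was 3.71, 4.98 and 5.0 in CA1 controls 1 to 3, 4.65 in the lesion array of CA1, 3.84, 3.75 and 3.93 in CA3 controls 1 to 3 and 5.23 in the CA3 lesion array. The summed intensity of 3 CA1 pyramidal markers was 46590 to 99090 in the CA1 controls and 3904 to 5943 in the CA3 controls, and did not overlap between the fields. Signal of other glia moved with the numbers that the titles give to the controls and with the lesion. The 10 microglia and macrophage markers summed to 5734, 13940 and 74620 in CA1 controls 1 to 3, 105700 in the lesion array of CA1, 5907, 10370 and 60640 in CA3 controls 1 to 3 and 78260 in the CA3 lesion array. The 8 measured myelin markers summed to 62380 to 668100 in the CA1 controls and 620200 in the lesion array of CA1. In CA3 they summed to 80800 to 503300 in the controls and 682600 in the lesion array. No marker of either list was at 0, but Itgam and Ptprc of the microglia list lay under the filter on dim signal.

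The gap junction gene Gja1, the fatty acid binding protein gene Fabp7 and the calcium binding protein gene S100b had the profiles most alike among the 9 genes, and all of them lie on chromosome 20. The 250 bases before the start site are shown for each because of these shared profiles. They are from RefSeq, in the GRCr8 assembly of the rat, and run 5′ to 3′ on the strand of the gene: Gja1 at chr20:36302314-36302563 on the plus strand, Fabp7 at chr20:37669356-37669605 on the plus strand and S100b at chr20:12381082-12381331 on the minus strand. Capitals mark matches to the AP-1 site TGANTCA, the nuclear factor I half-site TTGGC and the CCAAT box, searched on both strands.
Gja1: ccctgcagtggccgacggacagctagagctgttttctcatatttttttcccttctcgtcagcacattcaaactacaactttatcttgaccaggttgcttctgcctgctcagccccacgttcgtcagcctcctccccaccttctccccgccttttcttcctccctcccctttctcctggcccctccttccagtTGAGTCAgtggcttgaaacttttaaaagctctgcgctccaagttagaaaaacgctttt
Fabp7: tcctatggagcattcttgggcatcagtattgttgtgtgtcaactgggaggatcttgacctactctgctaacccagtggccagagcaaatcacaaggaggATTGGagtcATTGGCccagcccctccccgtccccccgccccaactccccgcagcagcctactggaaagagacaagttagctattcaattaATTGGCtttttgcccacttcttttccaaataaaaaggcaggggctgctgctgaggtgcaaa
S100b: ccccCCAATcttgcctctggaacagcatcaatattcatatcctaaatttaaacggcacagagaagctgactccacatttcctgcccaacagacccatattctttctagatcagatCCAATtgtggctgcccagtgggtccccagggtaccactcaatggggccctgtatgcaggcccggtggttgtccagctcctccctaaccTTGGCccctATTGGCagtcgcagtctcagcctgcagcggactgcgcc

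The windows differed in these letters. The Gja1 window held 1 AP-1 match, from -58 to -52 relative to the start site, a motif found in 6.3% of 33469 rat promoter windows, and held neither of the others. Fabp7 and S100b had 2 half-site matches each, at -141 and -60 in Fabp7 and at -47 and -37 in S100b, and the half-site occurred in 40.3% of all windows. They also had 3 CCAAT matches each, against 34.0% of windows with at least 1. The CCAAT letters read on the other strand overlap the half-site in ATTGGC, so both Fabp7 half-sites and the S100b half-site at -37 were counted under both motifs. Over the 9 genes, with 15 windows, the half-site was present in 6 genes, CCAAT in 5, the GC box GGGCGG in 5, against 30.5% of all windows, and AP-1 in Gja1 alone. The SOX letters AACAAT were present in Fabp7 alone, against 10.3% of windows, the RBPJ letters TGGGAA in Aldh1l1 and Slc1a3, against 22.1%, and TATAAA in none of the 9, against 12.9%. A match is a description of the sequence, and genes with several windows had more chances of one.

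All array levels below are log2(intensity + 16) of the brightest probe set of a gene unless another is named, and differences are on the same log2 scale. Levels are compared only within a probe set.

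Gja1 encodes the main gap junction protein, or connexin, of astrocytes. Its level was 17.57, 17.65 and 18.20 in CA1 controls 1 to 3, 18.22 in the lesion array of CA1, 17.19, 17.63 and 17.82 in CA3 controls 1 to 3 and 18.26 in the CA3 lesion array. Both lesion arrays lay above all 6 controls, although CA1 control 3 came within 0.02 of the CA1 lesion array. Control 1 was the lowest and control 3 the highest in each field.

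Gjb6 encodes another astrocyte connexin. It was at 10.88, 10.19 and 9.32 in CA1 controls 1 to 3, 10.48 in the lesion array of CA1, 9.37, 10 and 9.72 in the CA3 controls and 10.75 in the CA3 lesion array. The order of the CA1 controls was opposite to that of Gja1, and the CA1 lesion array lay inside their range. Its spread was the widest of the 9 genes, with a range of 1.57 over the 8 arrays.

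Slc1a3 encodes the glutamate transporter GLAST, and Slc1a2 encodes GLT-1, the transporter that takes over most glutamate clearance in the mature forebrain. Slc1a3 was at 16.31, 16.48 and 16.57 in the CA1 controls, 16.53 in the lesion array of CA1, 15.59, 16.19 and 16.12 in the CA3 controls and 16.17 in the CA3 lesion array. Slc1a2 was at 11.23, 11.00 and 11.52 in the CA1 controls, 11.55 in the lesion array of CA1, 11.13, 11.06 and 11.35 in the CA3 controls and 11.11 in the CA3 lesion array. The CA3 controls lay below all CA1 controls for Slc1a3, and the fields overlapped for Slc1a2, which had the narrowest range of the 9 genes, 0.55.

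Glul encodes glutamine synthetase, the enzyme that follows uptake. Its level was 16.12, 15.67 and 16.24 in the CA1 controls, 16.40 in the lesion array of CA1, 15.67, 15.89 and 16.32 in the CA3 controls and 16.36 in the CA3 lesion array. The lesion arrays were the highest of their field, by 0.16 over CA1 control 3 and by 0.03 over CA3 control 3.

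Aqp4 encodes the water channel of astrocyte endfeet. It was at 16.38, 16.27 and 16.64 in the CA1 controls, 16.65 in the lesion array of CA1, 16.05, 16.65 and 16.75 in the CA3 controls and 16.74 in the CA3 lesion array. CA3 control 1 was the lowest array, and the CA3 lesion array lay just under CA3 control 3.

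S100b encodes a calcium binding protein used as a marker of astrocytes, although oligodendrocyte lineage cells make it too. It was at 16.72, 16.87 and 17.39 in the CA1 controls, 17.38 in the lesion array of CA1, 16.45, 16.74 and 17.17 in the CA3 controls and 17.24 in the CA3 lesion array. In each field the lesion array stood beside control 3 and above controls 1 and 2.

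Fabp7 encodes the brain lipid binding protein of radial glia and astrocytes, and Aldh1l1 encodes a folate enzyme that serves as a pan-astrocyte marker. Fabp7 was at 17.79, 17.74 and 18.08 in the CA1 controls, 18.18 in the lesion array of CA1, 17.46, 17.56 and 17.80 in the CA3 controls and 18.29 in the CA3 lesion array. Aldh1l1 was at 11.32, 11.79 and 11.88 in the CA1 controls, 11.84 in the lesion array of CA1, 12.07, 11.79 and 11.80 in the CA3 controls and 12.03 in the CA3 lesion array. For Fabp7 both lesion arrays lay above all 6 controls, whereas for Aldh1l1 each lesion array lay inside the range of its controls. Of the 9 genes, 7 kept within 1 log2 unit over all 8 arrays, and Gja1 (range 1.06) and Gjb6 did not. Of all probe sets tested, which were not matched for brightness, 39.3% did so. Of the 17 tested member probe sets 12 did, and dimmer ones of Slc1a2, Slc1a3 and Gja1 ranged over 2.63, 3.09 and 3.07.

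**Figure D1:**
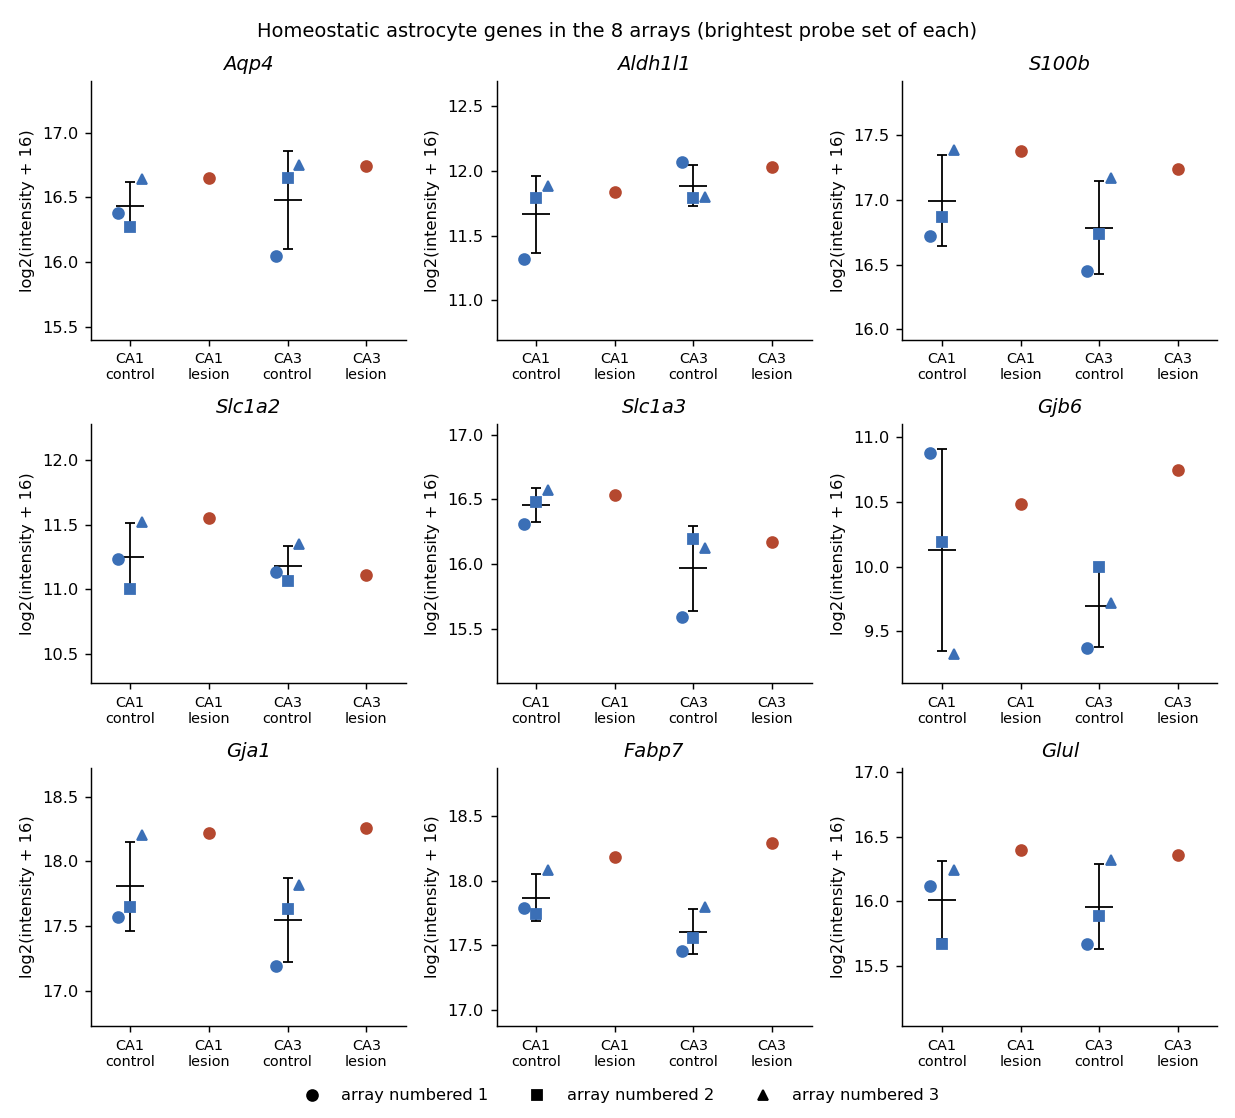
Level of each of the 9 genes, as log2(intensity + 16) of its brightest probe set, in the 8 arrays; blue marks are controls with their mean ± SD (n = 3), red marks are the lone lesion arrays, the mark's shape gives the array's number, and each axis spans the same width. Gja1, Fabp7 and Glul have both lesion arrays above all controls, Slc1a3 has its CA3 controls below its CA1 controls, and Gjb6 spreads most among the CA1 controls.

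No member passed the threshold between CA3 and CA1 in the control cultures. In limma 0 of the 17 member probe sets passed an adjusted p of 0.05 and 1 had an unadjusted p under 0.05, while 98 of the 18625 probe sets tested (0.526%) passed and 1548 (8.31%) had an unadjusted p under 0.05. By the brightest probe set 2 of 9 genes were higher in CA3, beside 45.5% of all probe sets, and 7 lower, with a median difference of -0.21, beside -0.04 over all probe sets. The genes at the ends were Aldh1l1, at 0.22 ± 0.22 (SE, n = 3 arrays per field), and Slc1a3, at -0.48 ± 0.19, with a 95% interval from -0.90 to -0.07 (limma adjusted p = 0.523). Slc1a3 was the one brightest probe set of the 9 genes with all CA3 controls below all CA1 controls, an arrangement found in 8.85% of all probe sets. The value was -0.29 without CA3 control 1, the lowest array.

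The second GLAST probe set also had non-overlapping fields, at 11.49, 11.43 and 11.70 in the CA1 controls and 11.12, 11.23 and 11.27 in the CA3 controls, a difference of -0.33 ± 0.21 (limma adjusted p = 0.716). The third went the other way, at 1.09 ± 0.76, on CA1 controls that ran from 7.08 to 10.17. Averaging all 3 gave 0.09. The intervals of the other genes by the brightest probe set all held 0. They ran from -0.40 to 0.50 for Aqp4, -0.72 to 0.30 for S100b, -0.75 to 0.22 for Gja1, -0.63 to 0.10 for Fabp7, -0.52 to 0.42 for Glul, -0.60 to 0.45 for Slc1a2 and -1.39 to 0.51 for Gjb6. For Gjb6 the arrays therefore allow a difference of over 2-fold towards CA1. Neuron markers summed to 222700 to 291400 in the CA1 controls and 311500 to 420200 in the CA3 controls, and their part in these differences was not tested.

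Lesion arrays carried somewhat more signal of the members than the average control, but no member passed where each group had its own coefficient and the numbers no term. All 9 brightest probe sets had a mean lesion difference above 0, as did 52.2% of all probe sets, and the median was 0.39 against 0.02 over all probe sets. In limma 0 of 17 member probe sets and 0 of all 18625 (0%) passed, with 3 member probe sets and 1193 of all (6.41%) at an unadjusted p under 0.05. A lesion group is a single array that the fit assumes to vary like the controls, and both fields' values use the same controls as the other comparisons. With the number as a term, the mean lesion value was 0.73 for S100b, 0.86 for Gja1 and 0.62 for Fabp7. Calls from that fit are given in the closing section, because the numbers are shared by title only.

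Fabp7 had a mean lesion difference of 0.50 ± 0.17 (SE, 2 lesion arrays against 6 controls), 1.41-fold, with a 95% interval from 0.13 to 0.87 (limma adjusted p = 0.771). For Gja1 it was 0.56 ± 0.22, 1.47-fold, with an interval from 0.08 to 1.05 (limma adjusted p = 0.771). Under quantile normalisation, which forces the same distribution on every array, these values were 0.20 and 0.24, so their size depends on the scaling. S100b stood at 0.42 ± 0.23 (0.26 under quantile normalisation), Glul at 0.39 ± 0.21 and Gjb6 at 0.70 ± 0.43. The remaining genes were nearer 0, with Aqp4 at 0.24 ± 0.20, Aldh1l1 at 0.16 ± 0.22, Slc1a3 at 0.14 ± 0.19 and Slc1a2 at 0.11 ± 0.24. With its 3 probe sets averaged, Aqp4 stood at -0.12.

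By the order of the arrays, Gja1, Fabp7 and Glul were the brightest probe sets with both lesion arrays above all 6 controls, 3 of 9, beside 4.63% of all probe sets. In CA1 the lesion array lay above its 3 controls for 5 of 9 genes (Aqp4, Slc1a2, Gja1, Fabp7 and Glul), beside 21.2% of all probe sets, and in CA3 also for 5 of 9 (S100b, Gjb6, Gja1, Fabp7 and Glul), beside 29.7%. The lone arrays make each such count a description, and the shares over all probe sets were not matched for brightness.

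Lesion values were also taken in each field. The median over the 9 genes was 0.31 in CA1, with 9 above 0 (50.7% of all probe sets), and 0.40 in CA3, with 8 above 0 (54.5% of all probe sets). In each field 0 probe sets passed in limma (0%), with 676 (3.63%) at an unadjusted p under 0.05 in CA1 and 871 (4.68%) in CA3. The largest CA3 values were 1.05 ± 0.60 for Gjb6, 0.71 ± 0.31 for Gja1 and 0.69 ± 0.23 for Fabp7 (limma adjusted p = 0.937, 0.937 and 0.870), against 0.35, 0.41 and 0.31 in CA1. The difference of the lesion values between the fields had a median of 0.06 over the members, with 7 of 9 above 0 (51% of all probe sets), and 0 probe sets (0%) passed in limma, with 576 (3.09%) at an unadjusted p under 0.05. For Gjb6 that difference was 0.70 with an interval from -1.20 to 2.60, so neither equal nor distinct responses of the fields could be shown.

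**Figure D2:**
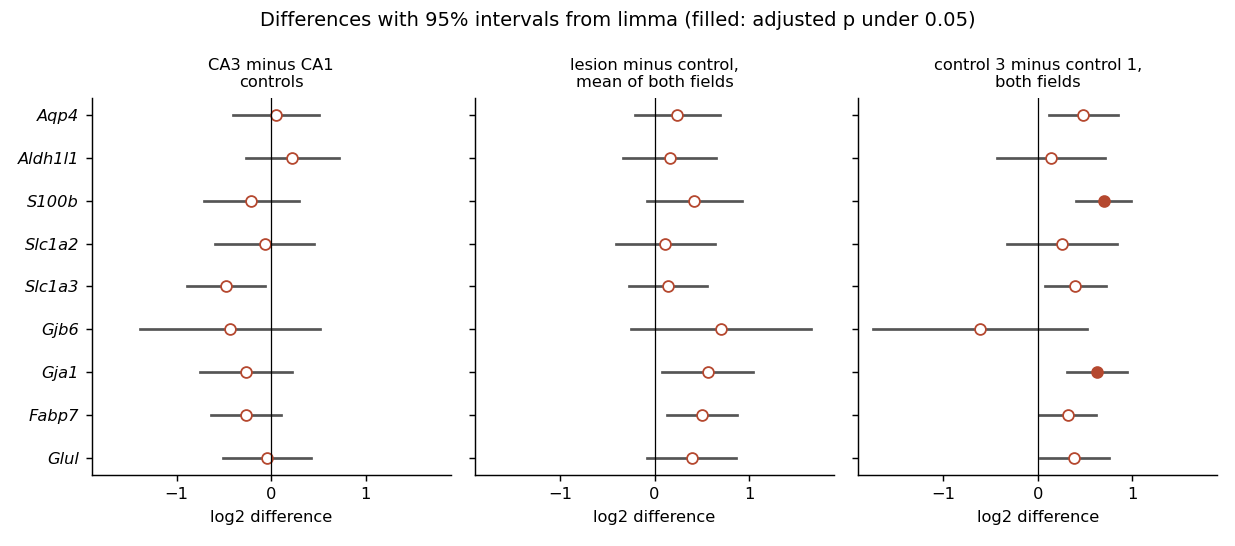
Log2 differences of the 9 genes (brightest probe set) with 95% intervals from limma for CA3 minus CA1 controls, for the mean lesion effect and for control 3 minus control 1; filled points have an adjusted p under 0.05. The lesion values, from the fit with no term for the number, all lie above 0 without passing. S100b and Gja1 alone are filled, in the comparison of the controls by number.

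The size of the lesion difference depended on which control the lesion array was set against. In CA1 the median over the 9 genes was 0.32 against control 1, 0.44 against control 2 and 0.02 against control 3. In CA3 it was 0.70, 0.47 and 0.07, with medians over all probe sets between -0.04 and 0.04. Gja1 in CA3 differed by 1.06, 0.63 and 0.44 from controls 1 to 3, and Fabp7 by 0.84, 0.73 and 0.50, so these 2 exceeded every CA3 control. In CA1 they differed from control 3 by 0.02 and 0.10. S100b differed from control 3 by -0.01 in CA1 and 0.07 in CA3. Gjb6 did not follow this order, with -0.40, 0.29 and 1.16 in CA1 and 1.38, 0.75 and 1.03 in CA3. The lesion arrays carry the number 1 in their titles.

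**Figure D3:**
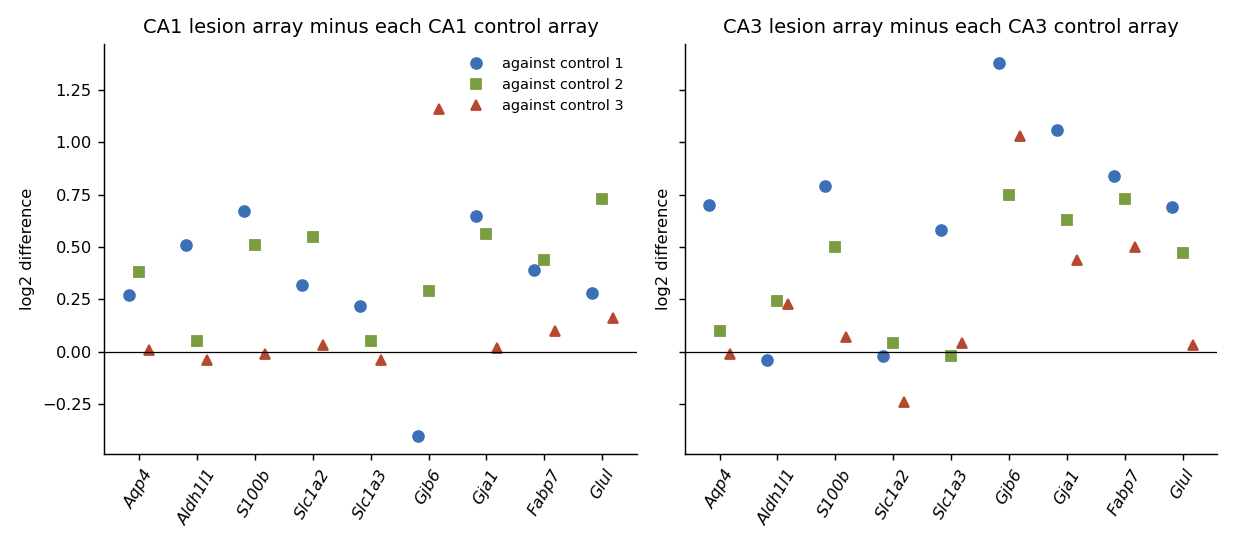
Log2 difference of the lesion array from each of the 3 control arrays of its field, for the 9 genes, in CA1 and in CA3. Against control 3 (triangles) most genes lie near 0 in both fields, while Gjb6 lies at 1.16 in CA1 and 1.03 in CA3, and Gja1 and Fabp7 lie at 0.44 and 0.50 in CA3.

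The controls themselves differed by number, and here members passed. Over both fields control 3 exceeded control 1 by 0.70 ± 0.14 (SE, n = 2 arrays per number) for S100b, 1.62-fold (limma adjusted p = 0.0137), and by 0.63 ± 0.15 for Gja1, 1.54-fold (limma adjusted p = 0.0331). The second brightest Glul probe set rose too, by 0.66 ± 0.16 (limma adjusted p = 0.0401), from 13.82 to 14.31 in CA1 and from 13.61 to 14.44 in CA3. In all, 3 of 17 member probe sets passed, each higher in control 3, beside 4.51% of all probe sets in either direction, 2.87% higher and 1.64% lower. The fit rests on 6 control arrays with 2 residual degrees of freedom. The 2 arrays of a number are 1 from each field, and whether they are independent is not in the labels. The SE therefore reflects how the number differences vary between the fields, and not the spread between repeats of a number.

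Values for the members that did not pass were 0.48 ± 0.17 for Aqp4 (limma adjusted p = 0.152), 0.40 ± 0.15 for Slc1a3 (0.182), 0.39 ± 0.17 for the brightest Glul probe set (0.259) and 0.32 ± 0.14 for Fabp7 (0.255). Slc1a2 stood at 0.25 ± 0.27 and Aldh1l1 at 0.14 ± 0.26. Gjb6 alone had a value below 0, at -0.61 ± 0.52. The median over the 9 genes was 0.39, with 8 above 0, beside -0.01 and 49.6% over all probe sets. Control 3 lay above control 1 in both fields for 7 of 9 genes, beside 30.2% of all probe sets, and was the highest control of both fields for 6, beside 17.1%.

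The calls depended on the variance model and on having both control 3 arrays. Without CA1 control 3, S100b stood at 0.68, Gja1 at 0.54 and the Glul probe set at 0.81. Without CA3 control 3 they stood at 0.71, 0.71 and 0.51. Their calls were lost in these fits, which leave number 3 as a single array, so the loss also reflects lower precision. The Glul probe set stood at 0.55 without CA3 control 1, and its call was lost there too. Over all alternatives S100b ran from 0.65 to 0.74, Gja1 from 0.40 to 0.71 and the Glul probe set from 0.51 to 0.81. When the variances were fitted without an intensity trend, limma passed 0 probe sets, 2270 had an unadjusted p under 0.05, and the adjusted p-values of the 3 were 0.384, 0.414 and 0.397. Gja1 had an adjusted p of 0.16 with no filter on dim signal, and stood at 0.40 (0.476) with its probe sets averaged. Without CA1 control 1, the values were 0.77 for Aqp4, 0.57 for Slc1a3 and 0.69 for the brightest Glul probe set. Number 1 was then CA3 control 1 alone, so the spread in that fit came almost wholly from other arrays and probe sets.

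Signal of other cell types moved with the same numbers. Between controls 1 and 3, 7 of 8 tested microglia and macrophage markers were called higher with a median of 2.98, and 8 of 8 myelin markers with a median of 3.09. Of 9 neuron markers 3 were called lower, with a median of -0.50. Over all probe sets 2.87% were called higher and 1.64% lower. For the mean lesion difference the medians were 2.60, 1.70 and -0.32, with 0 markers called in limma and 7 of the 8 microglia, 0 of the myelin and 2 of the neuron markers at an unadjusted p under 0.05. Summed over the 9 neuron markers, intensity was 218400 in the lesion array of CA1 and 300800 in that of CA3, each below its controls. The margin to control 3 was small (222700 in CA1 and 311500 in CA3). Single markers differed, with Tubb3 and Slc17a7 above control 3 in both lesion arrays and Gad1 below it. The Gapdh 3'/5' ratio was highest in the CA3 lesion array. Between controls 1 and 3 it was 3.71 and 5.0 in CA1 and 3.84 and 3.93 in CA3. The same ratio for Actb gave another order, with 19.8 in the CA3 lesion array inside the range of its controls (15.0 to 21.4), and 17.3 in the CA1 lesion array inside 14.5 to 22.2. The part of these cell types and of RNA quality in the members' values was not tested.

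**Figure D4:**
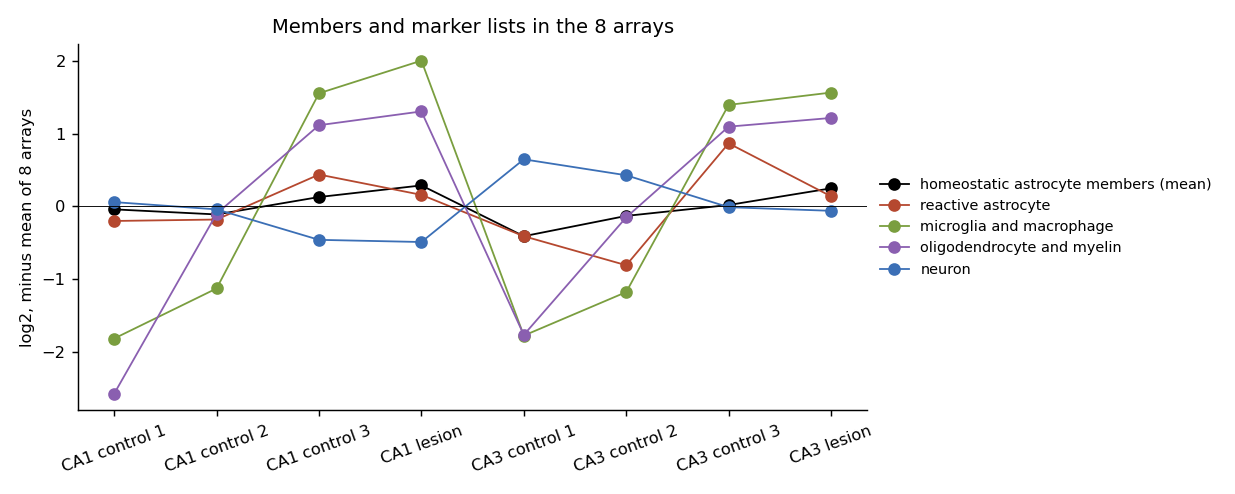
Mean of the 9 member genes and median of the reactive astrocyte, microglia and macrophage, myelin and neuron lists in each array, as log2 values minus the mean over the 8 arrays; lines only link points of a list. The members span -0.41 to 0.29, whereas the microglia median spans -1.82 to 2.01 with the same arrays (control 3 and lesion) on top.

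Several members have more than 1 probe set, and these did not always move together. The 3 Glul probe sets followed each other over the 8 arrays, with Pearson correlations of 0.89 to 0.93, given here as descriptions because the arrays and the gene are shared. Their mean lesion values were 0.39, 0.53 and 0.56. The dimmer Glul probe sets stood at 13.57 to 14.55 and 11.63 to 12.45.

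The dimmer Gja1 probe sets departed from the brightest. The second brightest was at 9.69, 10.09 and 9.83 in the CA1 controls, 11.09 in the lesion array of CA1, 9.30, 9.37 and 9.75 in the CA3 controls and 8.02 in the CA3 lesion array. Among the 8 arrays it was thus highest in the lesion array of CA1 and lowest in that of CA3, where the brightest Gja1 probe set was high in both, an opposition of the 2 lesion arrays beyond their controls that 9.49% of all probe sets had. Its correlation with the brightest was 0.05. The third lay under the filter and ran from 6.21 to 9.26, with the 2 lesion arrays highest.

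For Slc1a3 the second probe set correlated with the brightest at 0.77 and the third at -0.31. Aqp4 had dimmer probe sets that ran from 10.56 to 11.29 and from 9.88 to 10.80, with mean lesion values of -0.10 and -0.51 beside 0.24 for the brightest. The second Slc1a2 probe set ran from 7.54 to 10.17 and correlated with the first at 0.06. Values for Gja1, Aqp4, Slc1a2 and Slc1a3 are therefore those of a named probe set, whereas the 3 Glul probe sets had the same sign in the region, lesion and control number comparisons, though not in the difference of the lesion values between fields (0.0058, -0.17 and 0.11).

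**Figure D5:**
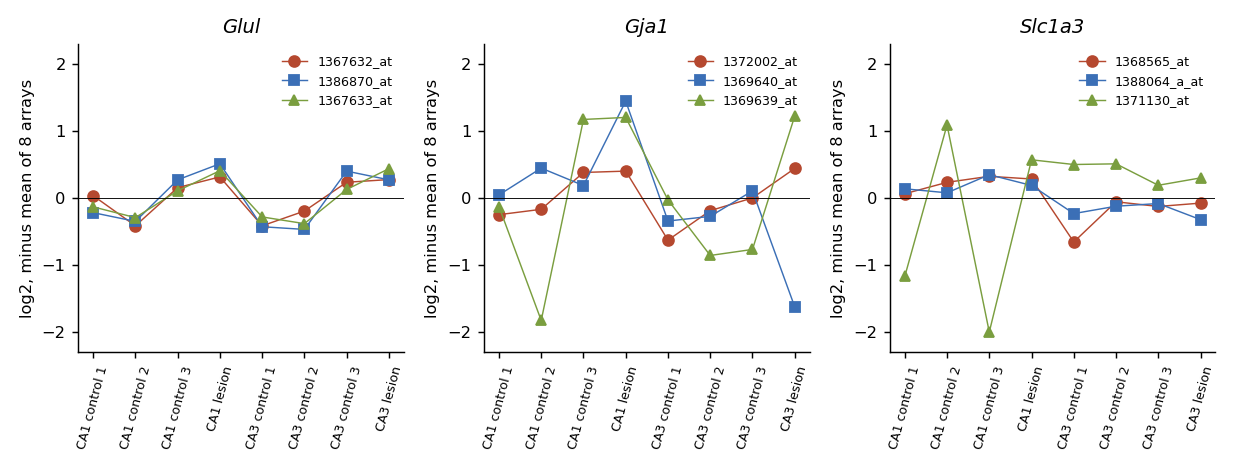
Log2 level minus its mean over the 8 arrays for every probe set of Glul, Gja1 and Slc1a3; lines only link points of a probe set. The 3 Glul probe sets overlap, 1 dimmer Gja1 probe set splits between the lesion arrays (11.09 and 8.02 before centring), and the third Slc1a3 probe set swings among the CA1 controls.

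Other astrocyte genes were described from lists grouped by role. Beside the counts below, 52.2% of all probe sets had a mean lesion value above 0. Between controls 1 and 3, 49.6% of all had a value above 0, 2.87% were called higher and 1.64% lower. In limma 8.31% had an unadjusted p under 0.05 for the region, 6.41% for the lesion and 17.3% for the numbers. Of 24 mature astrocyte genes 0 passed for the region or the lesion in limma, with 1 and 5 at an unadjusted p under 0.05. Their median lesion value was 0.29 with 19 above 0, led by Cldn10, a tight junction claudin (0.83), Clu, which encodes the secreted chaperone clusterin (0.82), the lipid carrier Apoe (0.47) and the retinaldehyde dehydrogenase Aldh1a1 (0.89), each with a limma adjusted p of 0.771. Without control 3 of both fields Clu stood at 1.12 and passed (limma adjusted p = 0.0107). Between controls 1 and 3, 6 of 24 were called higher and 0 lower, with 23 above 0 and a median of 0.44. Clu rose by 0.98 ± 0.14 (limma adjusted p = 0.00157), Aldh1a1 by 1.23 ± 0.20 (0.00432), the BMP antagonist Chrdl1 by 2.17 ± 0.39 (0.00836) and the acyl-CoA synthetase Acsbg1 by 0.78 ± 0.17 (0.0225).

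Genes that act beside the glutamate transporters behaved unevenly. Of 13 tested genes of transmitter uptake and the glutamate-glutamine cycle, 5 had a lesion value above 0 (median -0.04) and 0 passed for the lesion or the region in limma, with 0 and 2 at an unadjusted p under 0.05. The lesion value of Slc7a11 was 0.86, and 1.30 without control 3 of both fields (limma adjusted p = 0.796 and 0.0168). Between controls 1 and 3 the cystine-glutamate exchanger Slc7a11 rose by 1.54 ± 0.19 (limma adjusted p = 0.000633) and the glutamine carrier Slc38a2 by 0.69 ± 0.16 (0.0283), while the vesicular glutamate transporter Slc17a7, a neuronal gene, fell by 0.96 (0.0186). Slc7a11 was at 13.23, 13.86 and 15.18 in CA1 controls 1 to 3, 14.98 in the lesion array of CA1, 14.05, 14.32 and 15.18 in the CA3 controls and 15.35 in the CA3 lesion array. As for S100b, control 3 and the lesion array were high in both fields.

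Among 12 tested genes of endfoot and membrane complexes 0 passed for region or lesion in limma (0 and 1 at an unadjusted p under 0.05), and 10 had a lesion value above 0 (median 0.17). The astrocyte membrane protein Mlc1 stood at 0.59, the connexin gene Gjb2 at 0.80 and the monocarboxylate transporter Slc16a1 at 0.82 (limma adjusted p = 0.771, 0.779 and 0.798). Without control 3 of both fields Mlc1 (0.82) and Slc16a1 (1.27) passed, with limma adjusted p-values of 0.0495 and 0.0128. Between controls 1 and 3, 2 of 12 were called higher, with 10 above 0. These were Slc16a1 and Mlc1, by 1.53 ± 0.16 and 0.77 ± 0.15 (limma adjusted p = 0.000161 and 0.0157). Of 12 tested genes of immature astrocytes and radial glia, the cells in which Fabp7 is classically found, 0 passed in any of these 3 comparisons in limma, with 0 at an unadjusted p under 0.05 for the region, 3 for the lesion and 4 for the numbers. The lesion values of the matrix protein Tnc, of Sox2 and of Pax6, a pair of progenitor transcription factors, were -0.96, 0.52 and 0.78 (limma adjusted p = 0.673, 0.771 and 0.771), and the list median was -0.06.

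Reactive astrocyte genes were also called between the numbered controls. Of 14 tested, 7 were called higher and 1 lower between controls 1 and 3, with 13 above 0 (median 0.88). For the lesion or the region 0 passed in limma, with 2 and 0 at an unadjusted p under 0.05. Complement C3 rose by 5.14 ± 0.27 (limma adjusted p = 4.12e-07), the iron carrier Lcn2 by 6.35 ± 0.79 (0.000668), the copper protein Cp by 2.37 ± 0.15 (2.17e-06) and Emp1 by 1.85 ± 0.26 (0.00157); microglia and other cells make C3 as well. C3 was at 9.19, 10.94 and 14.24 in CA1 controls 1 to 3 and 13.72 in the CA1 lesion array, and at 8.55, 10.17 and 13.76 in the CA3 controls and 13.68 in the CA3 lesion array. The lesion arrays were thus close to control 3 for this gene too. The gene that fell was Serpina3n, at 12.88, 7.75 and 10.14 in CA1 controls 1 to 3 and 9.74 in the CA1 lesion array. It was at 12.82, 8.99 and 9.76 in the CA3 controls and 8.15 in the CA3 lesion array. For the lesion the list median was 0.19 and Cp stood at 1.66 ± 0.63 (limma adjusted p = 0.771), and at 2.29 without control 3 of both fields (0.0101), with the intermediate filament gene Gfap at 0.41 (-0.08 under quantile normalisation). Besides Serpina3n, 13 genes were named from these lists as called between controls 1 and 3. Of these 13, 5 kept the call without CA1 control 3 (Slc16a1, C3, Cp, Lcn2 and Emp1) and 4 without CA3 control 3 (Slc7a11, Slc16a1, C3 and Cp). The count was 10 with probe sets averaged per gene and 0 without the intensity trend. Fits without CA1 control 3 or CA3 control 3 leave number 3 as a single array, so a call lost there also reflects lower precision.

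Within the members, the brightest probe sets of Gja1 (0.95), Fabp7 (0.94), S100b (0.88) and Glul (0.84) correlated best with the mean of the other members over the 8 arrays, while Gjb6 (0.19) and Aldh1l1 (-0.14) did so least. The closest pairs were S100b with Gja1 (0.96), Gja1 with Fabp7 (0.95) and S100b with Fabp7 (0.88). The mean of the 9 centred members was -0.04, -0.11 and 0.13 in CA1 controls 1 to 3, 0.29 in the lesion array of CA1, -0.41, -0.13 and 0.02 in the CA3 controls and 0.25 in the CA3 lesion array. Among 10835 genes, those most like this mean over the 8 arrays were Tab2 (r = 0.970), Dapp1 (0.964), Pde9a (0.962), Marchf3 (0.959), Cxcl16 (0.958) and Pfas (0.958). Over the 6 controls, centred within field, they were Aldh6a1 (0.998), Aifm2, Soat1, Eif3h, Hnrnph3 and Cast (0.994), and no gene was in both sets of 6. These are the highest of many correlations over few arrays that share their scaling, and are given as descriptions.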

How the data were processed

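The members and the related lists were chosen with earlier results of these data known. The deposited values are linear intensities, 1 per probe set and array; a 2% trimmed mean near 2501 in every array was read as scaling by the authors. Summarisation software is not given in the sources used here. Precision is limited by the number of arrays. Values were converted to log2(value + 16), on which folds of dim probe sets are understated. After removal of 57 control probe sets and of those with a mean under the 40th percentile (8.35), 18625 were tested with limma 3.58.1 in R 4.3.3: 1 coefficient per group, an intensity trend, 4 residual degrees of freedom, and Benjamini-Hochberg adjustment over all probe sets at a threshold of 0.05. Controls 3 and 1 were compared over the 6 control arrays with field and number as terms. Groups came from the titles. Symbols came from the platform annotation and were matched to RefSeq by gene identifier. Members are named by their brightest probe set, up to 4 genes of a list by call and then by p, and the 6 genes most like the members by correlation. Serpina3n was added as the reactive list's gene that fell. The fits were also run on simulated data, with independent noise and the same spread in every array. For the region and lesion fits the simulation held no effect of the numbers, so it cannot show how such an effect bears on them.

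Each value was recomputed with quantile normalisation; with a pseudocount of 1 or 64; without the filter or with the filter at the 60th percentile; without the trend; without probe sets open to cross-hybridisation; on gene means; with the replicate number blocked; with an additive model; leaving out single arrays or control 1 or 3 of both fields; and on the 6 controls alone.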

Additional observations from a re-analysis of the deposited data

Results flagged for a closer look

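The second brightest Gja1 probe set had lesion values of opposite sign in the 2 fields, each beyond all controls of its field: 1.22 ± 0.54 in CA1 and -1.45 ± 0.54 in CA3. The CA3 value minus the CA1 value was -2.67 ± 0.76 (limma adjusted p = 1, and 0.364 to 1 over the alternatives), so it did not pass over all probe sets. The same arrangement, lesion arrays beyond their controls on opposite sides, was found in 9.49% of all probe sets. The brightest Gja1 probe set gave 0.30 ± 0.44 for this difference.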

How the results depend on the processing

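The members' median lesion difference was above 0 in every alternative and ran from 0.20 under quantile normalisation to 0.50 without control 3 of both fields, with 8 or 9 genes above 0; for control 3 minus control 1 it ran from 0.23 to 0.57 and for the region from -0.36 to -0.01. Of 945 values of the member genes over the comparisons and alternatives, 44 had the other sign.

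Counts of probe sets past the threshold moved more. For the region, 98 became 0 without an intensity trend, 40 with gene means and 5 without control 1 of both fields, and 24 to 104 with single arrays left out (24 and 29 with CA3 control 2 or 1 dropped, 27 and 47 with CA1 control 2 or 1 dropped). For control 3 minus control 1, 840 became 0 without the trend, 430 with gene means (of fewer features), and 108 to 1547 with single arrays left out (108 and 1503 with CA3 control 3 or 1 dropped, 127 and 1547 with CA1 control 3 or 1 dropped). The mean lesion count of 0 became 0 to 1 with single arrays left out and 182 without control 3 of both fields, where S100b had a limma adjusted p of 0.0975, Gja1 0.0723 and Fabp7 0.0831. The lesion count in CA1 became 3 and in CA3 6 without control 3 of both fields, and 5 in CA3 under quantile normalisation or a pseudocount of 1. The cause was not tested. A lesion mean or a difference between fields could not be computed without a lone lesion array.

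The numbers 1 to 3 are shared by title only. Deviations of same-numbered controls correlated at 0.16, 0.06 and 0.31, not all over 0.1, although every control correlated best with its own number in the other field, a hint from the data and not from the design. With the replicate number as a block, 358 probe sets passed for the region, 697 for the mean lesion effect, 258 for the lesion in CA1 and 310 in CA3. In that block the mean lesion values were 0.73 for S100b, 0.86 for Gja1, 0.62 for Fabp7 and 0.72 for the second brightest Glul probe set (limma adjusted p = 0.0134, 0.00925, 0.0322 and 0.0331), and in CA3 Gja1 stood at 1.01 and Fabp7 at 0.80 (0.0247 and 0.0493). Of the list genes, Clu (1.21), Aldh1a1 (1.51), Cldn10 (1.20), Slc7a11 (1.53), Slc16a1 (1.43), Mlc1 (0.91), Sox2 (0.64), Pax6 (1.25) and Cp (2.77) passed for the mean lesion effect in the block, with limma adjusted p-values from 1.4e-06 for Cp to 0.0388 for Sox2.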
